A study of Mus musculus with 48 samples.

Results

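Ddx51, Nup214, Scfd2, Dxo, Clptm1l, Adar and Ctu2 are 7 mouse genes with a binding event of the zinc finger protein ZFP131 at one end and a strong gain of H3K27me3 there in embryonic stem cells that lack the factor. They were taken by name out of 21887 protein-coding genes, and everything listed or tabulated within 1 kb of either annotated gene end was collected. The genes were selected on their H3K27me3 values in Zfp131KO and their ZFP131 events, so both are described here without a test. The data are ChIP-seq of 9 targets in 48 libraries, which form 24 groups of 2 by target and genotype.

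The knockout cells are labelled iZfp131-HA Zfp131KO, iZbtb11-HA Zbtb11KO and, for NELF and H3K4me3 alone, iZbtb11-HA iZfp131-V5 Zbtb11KO Zfp131KO. The wildtype cells are labelled Ainv15(iCre). Each knockout line thus carries a doxycycline-inducible tagged copy of each factor it lacks. All of these cells were kept for 3 days without doxycycline, in medium with LIF and without the 2 kinase inhibitors of the ground-state culture. The exception is the HA libraries, which came from the same single knockout lines after 3 days with doxycycline and with both inhibitors, so binding was read from an induced tagged factor in another medium. The labels name 1 line per genotype, so an effect of a knockout and a difference between lines cannot be told apart. They do not say whether the 2 libraries of a group came from separate cultures, so standard errors and p-values may measure technical spread.

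ZFP131 and ZBTB11 are BTB-domain zinc finger proteins that bind DNA. H3K27me3 is laid down by Polycomb repressive complex 2 and marks silent promoters, whereas H3K27ac sits on the same lysine of the histone tail at active promoters, so the same residue cannot carry both. H3K4me3 marks the start of active and poised genes, NELF holds RNA polymerase II shortly after initiation, SETD1A belongs to an H3K4 methyltransferase complex, and SIN3A and CHD4 are core proteins of histone deacetylase complexes. The genes themselves have housekeeping roles. Ddx51 encodes a DEAD-box RNA helicase of ribosomal RNA maturation. Nup214 encodes a nucleoporin on the cytoplasmic face of the nuclear pore. Scfd2 encodes a Sec1 family domain protein. Dxo encodes a nuclease that removes faulty RNA caps. Clptm1l encodes a membrane protein related to CLPTM1. Adar encodes an enzyme that edits adenosine in double-stranded RNA, and Ctu2 acts with Ctu1 in thiolation of the wobble uridine of cytosolic tRNAs.

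In mm10, Ddx51 lies at chr5:110653432-110663019, Nup214 at chr2:31974408-32053975, Scfd2 at chr5:74204816-74531742, Dxo at chr17:34836996-34839187, Clptm1l at chr13:73604002-73620639, Adar at chr3:89714469-89753455 and Ctu2 at chr8:122476068-122483092. The gene table used gives no strand, so the end with more wildtype H3K4me3 was taken as the promoter end, and distances below run from it with positive values into the gene. This was the lower coordinate at 6 genes and the higher one at Scfd2. The promoter sequences, 250 bases before to 50 after an annotated start in RefSeq's GRCm38.p6, are shown for the 5 genes that matched because ZFP131 events and the new H3K27me3 fall on or beside them. Adar has 3 such promoters, and the one given holds its 2 strongest ZFP131 events and has the most CpG of the 3. Capitals mark GGGCGG (the SP and KLF box), CCAAT (NFY), TGACGTCA (the CREB element) and CACGTG (the E-box) on either strand.
Ddx51 (chr5:110653201-110653500, plus strand): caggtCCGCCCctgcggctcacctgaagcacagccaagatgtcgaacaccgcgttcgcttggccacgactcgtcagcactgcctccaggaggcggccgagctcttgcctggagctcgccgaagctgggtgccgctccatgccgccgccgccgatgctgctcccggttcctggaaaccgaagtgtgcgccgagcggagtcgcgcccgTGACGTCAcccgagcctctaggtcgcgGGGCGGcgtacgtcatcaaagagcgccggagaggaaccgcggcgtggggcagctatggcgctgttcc
Nup214 (chr2:31974200-31974499, plus strand): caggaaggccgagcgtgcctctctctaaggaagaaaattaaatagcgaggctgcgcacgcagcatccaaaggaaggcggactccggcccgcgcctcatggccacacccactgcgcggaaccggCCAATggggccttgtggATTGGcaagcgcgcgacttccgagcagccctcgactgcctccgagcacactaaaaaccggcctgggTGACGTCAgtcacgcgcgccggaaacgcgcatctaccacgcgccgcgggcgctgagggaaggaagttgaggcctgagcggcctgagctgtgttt
Scfd2 (chr5:74531693-74531992, minus strand): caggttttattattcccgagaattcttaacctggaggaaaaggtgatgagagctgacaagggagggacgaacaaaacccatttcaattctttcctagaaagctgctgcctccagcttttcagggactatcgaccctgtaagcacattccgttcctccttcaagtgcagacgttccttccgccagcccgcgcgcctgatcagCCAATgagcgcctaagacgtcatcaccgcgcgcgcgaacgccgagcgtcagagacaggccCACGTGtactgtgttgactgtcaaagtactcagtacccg
Adar (chr3:89714988-89715287, plus strand): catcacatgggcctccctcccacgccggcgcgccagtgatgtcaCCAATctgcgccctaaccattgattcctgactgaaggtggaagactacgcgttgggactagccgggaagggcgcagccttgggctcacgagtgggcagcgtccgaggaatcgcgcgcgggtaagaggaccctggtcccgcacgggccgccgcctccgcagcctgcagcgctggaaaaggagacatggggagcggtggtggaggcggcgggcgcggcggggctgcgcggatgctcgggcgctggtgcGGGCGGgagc
Ctu2 (chr8:122475893-122476192, plus strand): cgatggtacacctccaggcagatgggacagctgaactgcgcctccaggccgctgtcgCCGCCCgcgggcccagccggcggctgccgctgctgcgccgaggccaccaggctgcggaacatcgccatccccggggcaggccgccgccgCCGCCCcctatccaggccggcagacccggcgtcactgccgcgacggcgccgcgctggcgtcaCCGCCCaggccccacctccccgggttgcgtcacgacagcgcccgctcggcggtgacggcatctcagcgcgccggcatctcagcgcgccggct

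These stretches were rich in CpG. The 5 printed promoters held 38 CpG dinucleotides at Ddx51, 32 at Nup214, 21 at Scfd2, 34 at Adar and 44 at Ctu2, against a median of 24.0 over the 368 promoters of other genes with strong ZFP131 events and 7.0 over 32817 promoters of the same length. Another promoter of Adar, whose start lies 44 bases from its strongest event, held 6. TGACGTCA stood in the same place at Ddx51 and Nup214, at bases -44 to -37 before the start. Its centre lay 31 bases from the nearest ZFP131 event at Ddx51 and 29 bases from it at Nup214. The element occurs in 19.6% of those 368 promoters, whose genes have a ZFP131 event with at least as many reads as the weakest of the 7, and in 1.79% of all promoters. CACGTG at Scfd2, found in 7.15% of all promoters, had its centre 3 bases from the main ZFP131 event. GGGCGG matched at Ddx51, Adar and Ctu2, and CCAAT at Nup214, Scfd2 and Adar, but 35.6% and 37.4% of all promoters hold them. None of CCGGAAGT (ETS, in 3.89% of all promoters), GCGCATGC (the NRF1 core, 2.71%), ATGGCGG (YY1, 4.05%), TCTCGCGA (0.993%) or TATAAA (the TATA box, 13.6%) was present in the printed stretches. Both strands were searched, and no matched motifs overlapped. A match describes letters in the window and shows no binding.

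ZFP131 events were listed at all 7 genes, where 10.2% of protein-coding genes have one. An event is a point position to which the authors' caller assigned reads, summed over both replicates. The strongest event had 2180.0 reads at Nup214, which ranked 5 of 3637 events by reads. It had 1675.6 reads at Clptm1l (rank 70), 1649.9 at Scfd2 (rank 76) and 1560.7 at Dxo (rank 98). It had 1316.8 reads at Ddx51 (rank 170), 1054.6 at Ctu2 (rank 270) and 882.2 at Adar (rank 352). All 7 were thus in the upper part of the list, and all but Adar's lay within 122 bases of the promoter end. Adar's lay 597 bases inside the gene, 44 bases after an annotated start. Ddx51, Dxo and Adar had 4 events each, Scfd2 had 3, and Nup214, Clptm1l and Ctu2 had 2 each.

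ZBTB11 events were listed at 5 of the 7 genes, where 35.9% of protein-coding genes have one, and were much weaker in their own list. The strongest had 141.0 reads at Clptm1l (rank 5344 of 22448), 132.4 at Dxo, 124.6 at Nup214, 77.3 at Ddx51 and 47.4 at Adar (rank 17922). No ZBTB11 event was listed at Scfd2 or Ctu2. With only the more significant 50% of the list, 2 genes kept a ZBTB11 event, while all 7 kept a ZFP131 event. The strongest ZFP131 event of another 378 genes had at least the 882.2 reads of Adar, and 71.4% of the 7 had a ZBTB11 event, against 73.5% of those 378. The depth behind these lists was 24.0 M reads for HA-ZFP131 and 26.2 M for HA-ZBTB11.

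In Zfp131KO, H3K27me3 domains were listed at all 7 genes, whereas none was listed at any of them in Zbtb11KO or in wildtype. Over all protein-coding genes, 27.8% had a domain in Zfp131KO, 26.9% in Zbtb11KO and 24.6% in wildtype. A domain is a stretch called on pooled replicates, with a read count that is not scaled for depth. The domains within 1 kb of the promoter end held 1062 reads in Zfp131KO at Ddx51, 778 at Nup214, 529 at Dxo, 465 at Adar, 427 at Ctu2, 330 at Clptm1l and 316 at Scfd2. Per kb of called domain this was 396 reads at Ddx51 and 258 at Clptm1l, with the other genes between them. The nearest wildtype domain was 13176 bases from the promoter end of Ctu2, between 22383 and 34722 bases away at Ddx51, Nup214, Dxo, Clptm1l and Adar, and 121220 bases away at Scfd2. Nup214 carried the longest domain, 2297 bp, and at Clptm1l the mark was broken into 5 pieces of 50 to 548 bp.

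**Figure D1:**
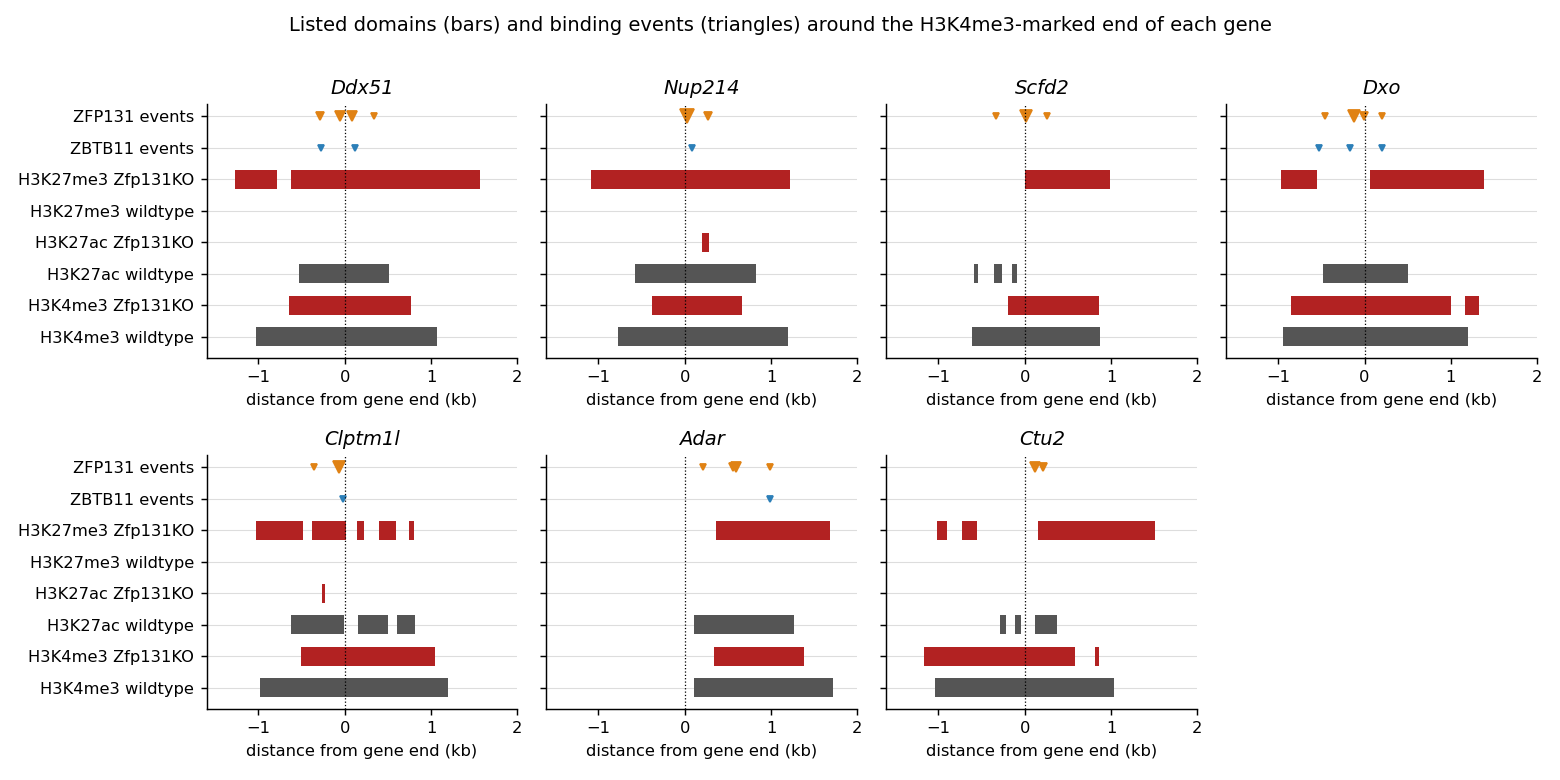
Domains (bars) of H3K27me3, H3K27ac and H3K4me3 in Zfp131KO (red) and wildtype (grey) and binding events (triangles, larger with more ZFP131 reads) against the distance in kb from the promoter end of each gene, positive into the gene. H3K27me3 bars are present at all 7 genes in Zfp131KO and at none in wildtype, and H3K27ac bars remain in Zfp131KO at Nup214 and Clptm1l alone.

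The new H3K27me3 lay on the wildtype H3K4me3 domain. Of its bases in these domains, the share inside the wildtype H3K4me3 domain was 100% at Adar, 96.1% at Clptm1l, 88.4% at Scfd2, 88.0% at Dxo, 85.3% at Nup214, 72.3% at Ddx51 and 71.1% at Ctu2. It covered the whole wildtype H3K4me3 domain at Nup214 and 56.6% of it at Clptm1l and Ctu2. The strongest ZFP131 event fell inside a domain at Ddx51, Nup214, Scfd2, Clptm1l and Adar. At Dxo it fell in a gap between domains, 186 bases from the nearer edge, and at Ctu2 43 bases outside.

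The gain can also be read from the authors' deposited table, which gives a log2 fold change, Zfp131KO over wildtype, for regions joined from the lists of both genotypes. In the longest region of each gene, the log2 fold change in the authors' deposited table was 4.06 ± 0.58 (SE) at Clptm1l, 4.04 ± 0.65 at Dxo, 4.03 ± 0.49 at Adar and 3.95 ± 0.62 at Ctu2. It was 3.90 ± 0.48 at Nup214, 3.90 ± 0.49 at Scfd2 and 3.84 ± 0.43 at Ddx51 in the authors' deposited table. The 7 values differed by less than 1 SE. Taking the region of highest mean signal, as for the other targets, 5 of the 7 were called at the authors' adjusted p under 0.05, against 9.95% of the 6570 genes with a region, and taking the longest region all 7 were, also against 9.95%. The difference came from short fragments at Clptm1l (50 bp) and Ctu2 (120 bp), and at Dxo the highest mean signal lay in a 49 bp fragment at the far end with 12 reads, whose log2 fold change was 10.64 ± 1.49 in the authors' deposited table. By longest region, the 7 genes ranked between 11 and 24 of 654 genes called higher. Aif1l and Noc4l, which share the regions of Nup214 and Ddx51, ranked 20 and 23 among them. Just below Ddx51 came Rrp1b and Hsf2bp, which share a region, at 3.84 ± 0.50, and Coq2 at 3.81 ± 0.82 in the authors' deposited table. In Zbtb11KO, none of the 7 genes had an H3K27me3 region to test, since neither that line nor wildtype had a domain there, while 6.46% of the 6359 genes with a region were called higher.

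H3K27ac fell at all 7 genes in Zfp131KO, where 11.1% of 10571 genes with a region were called lower. Genes with no H3K27ac domain in Zfp131KO have a region only through wildtype domains, so a fall there follows in part from having a region. Of its domains, 2 of the 7 genes kept one in Zfp131KO, against 7 of 7 in wildtype, where the shares of all genes were 42.1% in Zfp131KO and 46.2% in wildtype. Ddx51 had no listed H3K27ac domain in Zfp131KO, against 392 reads in wildtype. Nup214 had 24 reads over 87 bp in Zfp131KO, against 466 reads over 1405 bp in wildtype. Clptm1l had 11 reads over 41 bp in Zfp131KO, against 3 domains of 192, 75 and 42 reads in wildtype. So little or no acetylation was listed at these promoters without ZFP131. Adar had none in Zfp131KO, against 285 reads in wildtype, and Dxo had none, against 224 reads in wildtype. Ctu2 and Scfd2 had none either, against 62, 21 and 17 reads in wildtype at Ctu2 and 24, 18 and 10 reads in wildtype at Scfd2, the lowest wildtype acetylation of the 7.

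The log2 fold change of H3K27ac in the authors' deposited table was -2.98 ± 0.48 at Ctu2 (adjusted p 4.01e-08), -2.49 ± 0.39 at Ddx51 (2.28e-08) and -2.29 ± 0.41 at Dxo (9.60e-07). It was -2.07 ± 0.37 at Nup214 (adjusted p 9.89e-07) and -1.95 ± 0.37 at Adar (3.38e-06) in the authors' deposited table. It was -1.70 ± 0.33 at Clptm1l (adjusted p 5.42e-06) and -1.22 ± 0.38 at Scfd2 (0.00828) in the authors' deposited table. The median of the 7 was -2.07, against -0.15 over all genes with a region. Between 38 genes (below Ctu2) and 777 genes (below Scfd2) had lower values. Ddx51 shares its region with Noc4l, Dxo with Stk19, Nup214 with Aif1l and Ctu2 with Rnf166, so the fall cannot be assigned to one gene of such a pair.

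In Zbtb11KO, H3K27ac domains were listed at all 7 genes, and by DESeq2 in the authors' deposited table none (0) of the 7 was called, against 9.94% of genes called lower, and 0 had an unadjusted p under 0.05. The listed domains held 256 and 30 reads in Zbtb11KO at Ddx51, 325 and 93 at Nup214, 325 and 17 at Clptm1l and 146 and 12 at Adar. They held 66 and 88 at Dxo, 31, 29 and 16 at Ctu2 and 50 at Scfd2. The log2 fold changes ran between -0.74 ± 0.42 at Scfd2 and 0.34 ± 0.31 at Clptm1l in the authors' deposited table. Zbtb11KO and Zfp131KO were compared with the same wildtype libraries, and the difference between the knockouts was not tested.

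**Figure D2:**
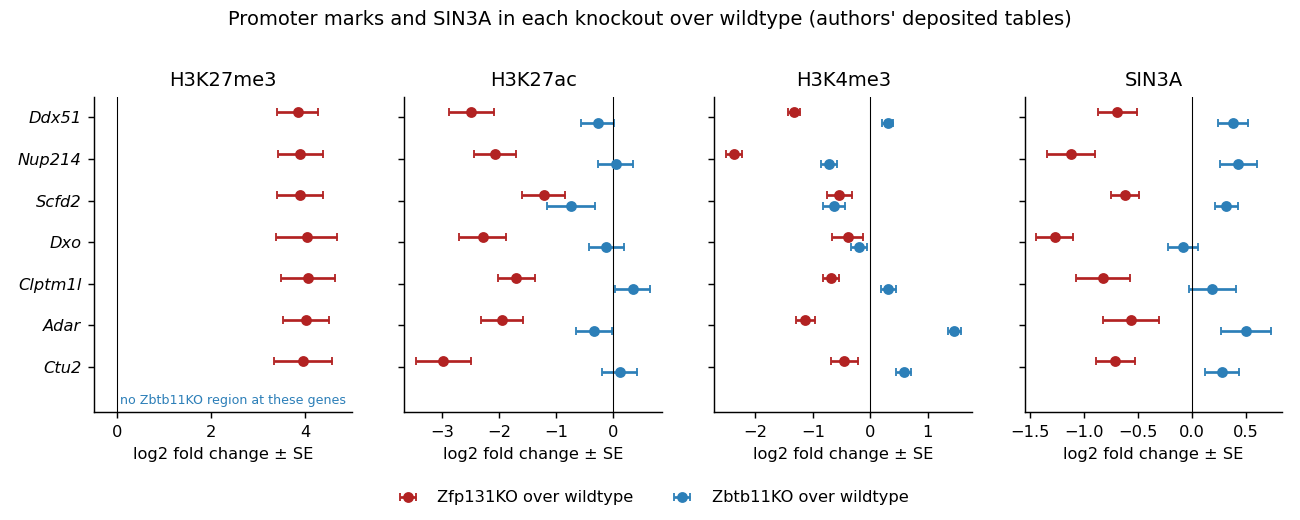
The log2 fold change over wildtype with its standard error at the 7 genes, in Zfp131KO (red) and Zbtb11KO (blue), from the authors' deposited tables (2 libraries per group). H3K27me3 is shown for the longest region, the other targets for the region of highest mean signal. H3K27ac lies between -2.98 and -1.22 in Zfp131KO and between -0.74 and 0.34 in Zbtb11KO.

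H3K4me3 was listed at all 7 genes in every genotype, with fewer reads in Zfp131KO than in wildtype. Over all protein-coding genes, 63.2% (Zbtb11KO) to 64.9% (double knockout) had a domain. Of genes with at least 50 wildtype reads, 99.0% to 99.4% were still listed in each knockout line, so keeping a domain is usual. Nup214 had 609 reads in Zfp131KO, 2648 in Zbtb11KO, 1877 in the double knockout and 3998 in wildtype. Ddx51 had 2011 in Zfp131KO, 4323 in Zbtb11KO, 3548 in the double knockout and 5708 in wildtype. Adar had 1177 in Zfp131KO, 2691 in Zbtb11KO, 1776 in the double knockout and 3175 in wildtype. At these 3 genes the lowest unscaled count was in Zfp131KO and the next in the double knockout. Scfd2 had 1012 in Zfp131KO, 1300 in Zbtb11KO, 1518 in the double knockout and 1845 in wildtype. Dxo had 2167 in Zfp131KO, 2763 in Zbtb11KO, 2324 in the double knockout and 3424 in wildtype. The unscaled count in Zfp131KO was lowest at both. Ctu2 had 1950 in Zfp131KO, 2410 in Zbtb11KO, 3089 in the double knockout and 3197 in wildtype. Clptm1l had 1524 in Zfp131KO, 2550 in Zbtb11KO, 4182 in the double knockout and 3106 in wildtype, the sole gene with more reads in a knockout than in wildtype.

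No depth is given for domains, so these sums are unscaled, and each was set beside the median log2 ratio over wildtype of the genes with at least 50 wildtype reads. That median was -0.10 in Zfp131KO, -0.42 in Zbtb11KO and 0.72 in the double knockout. Relative to it, the 7 genes lay between -2.61 (Nup214) and -0.56 (Dxo) in Zfp131KO, at percentiles 0.469 to 10.1 of genes. They lay between -0.17 (Nup214) and 0.18 (Adar) in Zbtb11KO, close to the middle of all genes. In the double knockout they lay between -1.81 (Nup214) and -0.29 (Clptm1l), at percentiles 1.82 to 23.2. All 7 were thus below the median of genes in both lines that lack ZFP131. The order of the unscaled counts in these lines did not hold at every gene relative to the median. Adar had -1.33 in Zfp131KO and -1.56 in the double knockout, Scfd2 -0.76 and -1.0, Dxo -0.56 and -1.28, and Ctu2 -0.61 and -0.77. Nup214 had -2.61 and -1.81, Clptm1l had -0.92 and -0.29, and Ddx51 had -1.4 in both. The lists pool replicates, so these ratios have no test.

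In the authors' deposited table for Zfp131KO, H3K4me3 fell at 4 of the 7 genes, against 4.18% of genes called lower. The log2 fold change was -2.37 ± 0.14 at Nup214 (adjusted p 4.67e-58), -1.33 ± 0.11 at Ddx51 (2.78e-29), -1.13 ± 0.17 at Adar (3.62e-09) and -0.68 ± 0.14 at Clptm1l (2.80e-05) in the authors' deposited table. It was -0.54 ± 0.22 at Scfd2 (adjusted p 0.0504), -0.45 ± 0.23 at Ctu2 (0.150) and -0.39 ± 0.27 at Dxo (0.294), which did not pass, in the authors' deposited table. The median over all genes was 0.24 there and that over all regions -0.01, so all 7 lay below both. In the authors' deposited table for Zbtb11KO, 3 of the 7 were called higher and 2 lower, against 42.9% and 24.8% of all genes, so these counts are near what all genes show. Centred on the table's median, 4 were called higher and 1 lower. Adar had 1.46 ± 0.11 (adjusted p 1.31e-38) and Nup214 had -0.72 ± 0.14 (1.27e-06) in that authors' deposited table. Values there were widely spread, with 3429 of 14238 genes above Adar and 2881 below Nup214. The listed reads do not show the rise, with 2691 at Adar in Zbtb11KO against 3175 in wildtype. Relative to the median of genes, the log2 ratio of those reads was 0.18 at Adar and -0.17 at Nup214. Ddx51 and Ctu2, also called higher, had fewer listed reads than in wildtype too. Why table and lists differ was not tested.

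**Figure D3:**
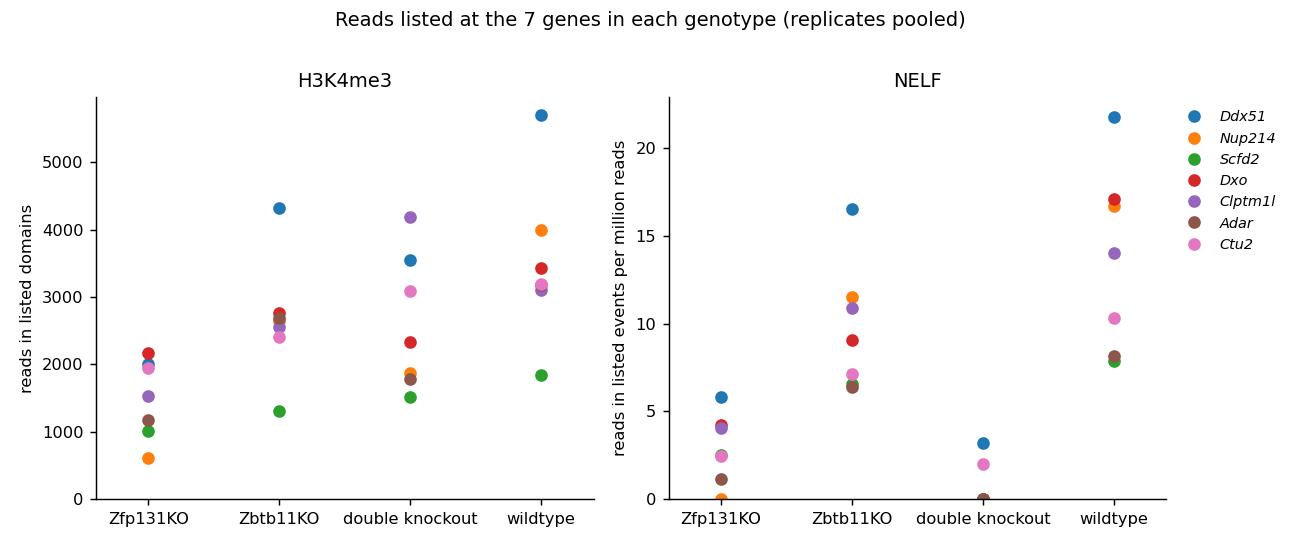
Reads in listed H3K4me3 domains (left) and in listed NELF events per M reads in the list's header (right) at each of the 7 genes, by genotype, with replicates pooled. NELF points at 0 are genes with no listed event, 1 gene in Zfp131KO and 5 genes in the double knockout.

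NELF events remained at 6 of the 7 genes in Zfp131KO, 7 in Zbtb11KO and 2 in the double knockout, against 7 in wildtype. The shares of all genes were 44.0% in Zfp131KO, 43.0% in Zbtb11KO, 29.1% in the double knockout and 59.3% in wildtype. Nup214 had no listed NELF event in Zfp131KO or the double knockout and 11.5 reads per M in Zbtb11KO, against 16.7 in wildtype. Adar had 1.14 reads per M in Zfp131KO, 6.38 in Zbtb11KO and none in the double knockout, against 8.17 in wildtype. Dxo had 4.22 in Zfp131KO, 9.06 in Zbtb11KO and none in the double knockout, against 17.1 in wildtype. NELF was lower in Zfp131KO than in Zbtb11KO at each of these. Ddx51 had 5.79 in Zfp131KO, 16.5 in Zbtb11KO and 3.19 in the double knockout, against 21.8 in wildtype. Ctu2 had 2.44 in Zfp131KO, 7.11 in Zbtb11KO and 2.01 in the double knockout, against 10.3 in wildtype. Scfd2 had 2.50 in Zfp131KO and 6.57 in Zbtb11KO, against 7.87 in wildtype, and Clptm1l had 4.06 in Zfp131KO and 10.9 in Zbtb11KO, against 14.0 in wildtype, with no event in the double knockout at either. Only Ddx51 and Ctu2 thus kept an event in the double knockout.

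NELF was lower across the genome in all 3 knockout lists, so the genes were again read against the median. The median log2 ratio over wildtype of genes still listed was -0.73 in Zfp131KO, -0.91 in Zbtb11KO and -1.76 in the double knockout. The 6 genes with an event in Zfp131KO lay between -2.11 (Adar) and -0.92 (Scfd2) relative to that median, at percentiles 0.637 to 11.2. In Zbtb11KO, 6 of the 7 lay 0.36 to 0.65 above the median and Dxo lay on it. In the double knockout, 2 of 7 listed is a smaller share than the 49.2% of genes with at least 50 wildtype reads still listed there, but its list has the smallest share of reads in events, 5.10% of 71.6 M, against 23.1% of 60.5 M in wildtype. The wildtype header names 1 replicate, and what these differences between lists add to the values was not tested. The NELF tables deposited for Zbtb11KO and for Zfp131KO are identical. Their region edges at Nup214 follow the Zbtb11KO events at 31974156 and 31974566 along with the wildtype events. No NELF event is listed there in Zfp131KO. The values are therefore given here as Zbtb11KO. The authors' deposited NELF table for Zbtb11KO called 1 of the 7 lower, Dxo at -1.06 ± 0.34 (adjusted p 0.00791), against 55.3% of all genes, and 2 of the 7 had an unadjusted p under 0.05. Centred on the median of that table, Dxo had -0.02 (adjusted p 0.996) and none was called. The other 6 lay between -0.63 and -0.43 before centring in the authors' deposited table. No NELF table was used for Zfp131KO.

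SIN3A fell at 6 of the 7 genes in Zfp131KO in the authors' deposited table, against 1.57% of 12866 genes called lower. The log2 fold change was -1.27 ± 0.17 at Dxo (adjusted p 3.06e-10), -1.12 ± 0.22 at Nup214 (6.04e-05) and -0.82 ± 0.25 at Clptm1l (0.0273) in the authors' deposited table. It was -0.71 ± 0.18 at Ctu2 (adjusted p 0.00471), -0.69 ± 0.18 at Ddx51 (0.00592) and -0.62 ± 0.13 at Scfd2 (4.50e-04) in the authors' deposited table. Adar had -0.56 ± 0.26 (adjusted p 0.207) there and did not pass in the authors' deposited table. The 7 values were all below the median of 0.15 over all genes, with between 15 genes (below Dxo) and 424 genes (below Adar) lower. In Zbtb11KO, the authors' deposited DESeq2 table called 0 of the 7, against 5.60% of genes called higher, with 4 at an unadjusted p under 0.05, all by the region of highest mean signal, whose values ran from -0.08 ± 0.14 at Dxo to 0.50 ± 0.23 at Adar. Weaker regions passed at Ddx51, with 0.52 ± 0.17 (adjusted p 0.0321), and Nup214, with 0.68 ± 0.22 (adjusted p 0.0316), in the authors' deposited table. In wildtype, SIN3A events were listed at all 7 genes, where 60.5% of genes have one. The single strongest had 909.4 reads at Scfd2, rank 24 of 83134 events. SIN3A events in Zfp131KO were not analysed here, because the list deposited for them is identical with that for CHD4. SIN3A regions at Ddx51 in the authors' deposited table for Zfp131KO have edges that follow an event of that list, at 110653407. The value at Ddx51 was thus measured over a region drawn in part from it.

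**Figure D4:**
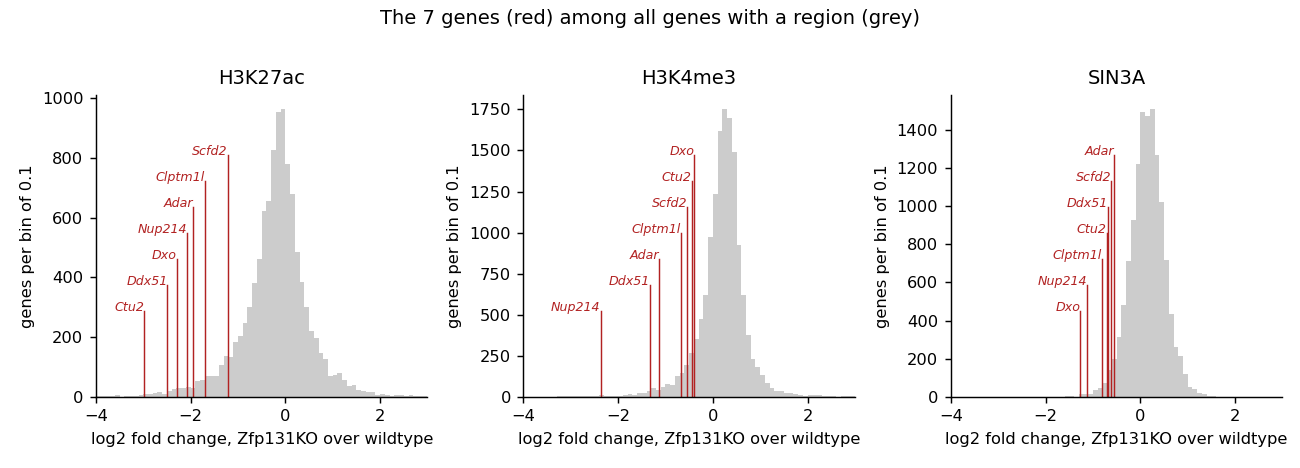
Number of genes in bins of 0.1 by log2 fold change, Zfp131KO over wildtype, for H3K27ac, H3K4me3 and SIN3A (grey), with the 7 genes as red lines whose heights only separate the labels. All 7 lie left of the median of genes, -0.15 for H3K27ac, 0.24 for H3K4me3 and 0.15 for SIN3A.

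CHD4 was listed at few of these genes, as at few of all genes. The event lists deposited as CHD4 and as SIN3A in Zfp131KO are identical, so which of the targets the list belongs to cannot be told, and it is used here as CHD4. Of the 7, Ddx51 alone had a listed CHD4 event, with 67.8 reads in Zfp131KO, where 12.5% of genes have one. No event was listed in Zbtb11KO or wildtype, where 6.27% and 11.3% of genes have one. These counts are near what all genes show. The log2 fold change at Ddx51 was -0.17 ± 0.33 (adjusted p 0.773) in the authors' deposited table, so 0 of 1 tested gene was called by DESeq2, 0 at an unadjusted p under 0.05, against 6.09% of genes called lower. SETD1A events, measured in wildtype alone, were listed at all 7 genes, where 43.7% of genes have one, with 462.6 reads at Nup214 and 155.7 at Scfd2 in their strongest events. Domains of polymerase II phosphorylated at serine 5, also measured in wildtype alone, were listed at all 7, where 57.4% of genes have one. At the promoter end the largest held 858 reads at Nup214, 751 at Ddx51 and 229 at Scfd2.

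Several genes have an end within 1 kb of the 7 and so share their regions in part. Noc4l, a nucleolar factor of small subunit ribosome assembly, ends 50 bases from Ddx51 and has the same 3.84 ± 0.43 for H3K27me3 in the authors' deposited table. Rnf166, 6 bases from Ctu2, rose by 2.05 ± 0.65 (adjusted p 0.0148) in its own region in the authors' deposited table. Stk19, 93 bases from Dxo, had 3.85 ± 2.62 (adjusted p 0.304) in the authors' deposited table. Values at these neighbours come in part from the same stretches as those of the 7. Aif1l, 966 bases from Nup214, had 0.18 ± 0.37 (adjusted p 0.753) in the region of highest mean signal in the authors' deposited table, although its longest region is the one of Nup214. Chrnb2, at the far end of Adar, rose by 1.25 ± 0.38 (adjusted p 0.0114) in the authors' deposited table. Skiv2l shares with Dxo the 49 bp fragment described above. Farther out, Ep400, Fip1l1, Nelfe, Ube2q1 and Piezo1 had no H3K27me3 region, and Galnt9, Lamc3, Fam78a, Rasl11b, Cyp21a1, Slc6a3, Tert, Kcnn3 and Snai3 had values between -1.02 and 0.34 in the authors' deposited table, none of them called, so no gain was called at the next gene on either side. Of those without a region, Nelfe had a ZFP131 event of 841.9 reads, Fip1l1 one of 129.9, Ube2q1 one of 85.9 and Piezo1 one of 60.1, so a bound neighbour could lack the mark.

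Strong ZFP131 binding and the gain overlapped only in part. Of the 654 genes called higher for H3K27me3 by their longest region, 150 had a ZFP131 event. This is a larger share than the 10.2% of all protein-coding genes that have one. Most gains were still at genes without a ZFP131 event. Of the 378 other genes with at least 882.2 reads in their strongest ZFP131 event, 70 (18.5%) were called higher in the same way. Of all 2234 genes with a ZFP131 event, 150 (6.71%) were. These shares count genes with or without a region, and over all 21887 protein-coding genes 654 were called higher, a smaller share than either. The 9.95% given above counts only genes with a region. Among the 70, H3K27ac was called lower in Zfp131KO at 52 (74.3%), H3K4me3 at 48 (68.6%) and SIN3A at 36 (51.4%). Among the 308 without the gain, H3K27ac was called lower at 72 of 306 (23.5%), H3K4me3 at 78 (25.3%) and SIN3A at 13 of 306 (4.25%). The pattern of the 7 genes was thus shared with many of the 70. The 70 include Noc4l and Aif1l, which were called through the regions of Ddx51 and Nup214, so part of their values are those of the 7. Stk19 and Rnf166, which also share regions with the 7, are among the 378. Genes that share a region were each counted. The 70 and the 308 had near-equal shares with a ZBTB11 event, 75.7% and 73.1%, and median ZFP131 reads of 1416 and 1334. Median wildtype H3K27ac reads were 228 in the 70 and 369 in the 308. These are descriptions of genes and not of replicates, without a test.

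The genes most like the 7 were sought over the 8 tables in which all of them have a region, which left out H3K27me3 in Zbtb11KO. Among 2493 genes with a region in all 8, the smallest Euclidean distances of log2 fold changes to the median of the 7 belonged to Nupl2 (0.67), Nsmce2 and Washc5 (0.93 each, with shared regions), Rrp1b (0.98) and Coq2 (1.00), and the median of all genes was 4.72. The 7 genes themselves lay between 0.78 (Clptm1l) and 6.82 (Dxo, with its short fragment). All 5 had a ZFP131 event, of 1448.3 reads at Nupl2, 1399 at Nsmce2 and Washc5, 1472.8 at Rrp1b and 492.6 at Coq2. Nupl2 had 3.54 for H3K27me3 and -2.10 for H3K27ac in Zfp131KO in the authors' deposited tables. The 8 tables include H3K27me3 in Zfp131KO, on which the 7 were chosen. A similar gain at the nearest genes thus follows from the rule, and the distance of all genes reflects it in part.

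Relatives of the 7 genes in the same pathways had mostly no H3K27me3 domain. Genes with no domain in wildtype have a region only through a domain in Zfp131KO, so a rise there follows in part from having a region, and counts of genes that rose are read beside the 9.95% called higher over all genes with a region. Of 20 other nuclear pore genes, 1 had a region and it rose, Nup133 of the pore scaffold, by 3.36 ± 0.70 (adjusted p 7.03e-05) in the authors' deposited table. Of 18 ribosome biogenesis genes, 4 had a region and all 4 rose in the authors' deposited table, namely Noc4l above, Rrp1b by 3.84 ± 0.50 (adjusted p 2.32e-11), the helicase gene Ddx10 by 3.79 ± 0.44 (4.16e-14) and Noc2l by 2.98 ± 0.47 (3.25e-08). Noc2l had no ZFP131 event. Among genes of tRNA wobble uridine modification, Urm1 had -0.60, Elp5 -0.41 and Elp2 -0.12 in the authors' deposited table and did not pass. Nup133 and Rrp1b also had strong ZFP131 events, of 1532.5 reads at Nup133 and 1472.8 at Rrp1b.

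Among Sec1/Munc18 and Golgi SNARE genes, Vps33a had 0.37 ± 0.53 (adjusted p 0.647) in the authors' deposited table. Of 10 genes of double-stranded RNA editing and sensing, 6 had a region and 0 were called by DESeq2, 0 of them at an unadjusted p under 0.05, with Adad1, Adarb1, Adarb2 and Ifih1 between -0.54 and -0.30 in the authors' deposited table. Of 10 genes of decapping and RNA decay from the cap end, 1 had a region, Dcp1b at 1.78 ± 0.75 (adjusted p 0.0790, with 1 gene at an unadjusted p under 0.05) in the authors' deposited table. Of 5 genes of the CLPTM family and the Clptm1l locus, 2 had a region, Slc6a3 and Tert, and neither was called, nor had an unadjusted p under 0.05. Of 13 genes of H3K27 methylation and its removal, 3 had a region, and the demethylase gene Kdm6b rose by 1.39 ± 0.42 (adjusted p 0.0110), the complex cofactor gene Aebp2 fell by 1.90 ± 0.60 (0.0151) and Phf19 had -0.42 ± 0.33 in the authors' deposited table. Genes with no domain in either line could not be called. H3K27ac was called lower in Zfp131KO, against 11.1% of all genes with a region, at 1 of the 19 nuclear pore genes with a region, 2 of 17 of ribosome biogenesis, 2 of 11 of tRNA wobble uridine modification and 1 of 10 of the Sec1 and SNARE list. It was called lower at 0 of those with a region among the genes of double-stranded RNA, decapping, the CLPTM family and H3K27 methylation.

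As a check of the cells, wildtype H3K4me3 was listed at 7 of 8 pluripotency genes, with a median of 4917 reads, and at 4 of 6 fibroblast, 3 of 5 primitive endoderm and 4 of 4 neural marker genes, with medians of 290, 24.0 and 532 reads. Wildtype H3K27ac was listed at 7 of 8 pluripotency genes, at 0 of the fibroblast and primitive endoderm genes and at 1 of 4 neural genes. Around the Zfp131 gene, H3K4me3 in Zfp131KO had a log2 fold change of 0.24 ± 0.11 (adjusted p 0.105) in the authors' deposited table, which checks nothing, since the deleted part is not given in the sources used here.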

How the data were processed

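The 48 ChIP-seq libraries were grouped by target and genotype from their titles. Reads were mapped to mm10 by Bowtie 1.0.1 (source: submitters' processing notes, which name bedtools and DESeq2 1.28.1 too). Event lists of NELF, CHD4, SIN3A, SETD1A and HA hold, per the file headers, a signal that is the number of reads given to each event by the caller over both replicates, a log2 fold over control and a log2 p-value. Domain lists of the authors hold read counts and p-values per domain on pooled replicates. Each region in the authors' deposited DESeq2 tables has its mean signal, log2 fold change and SE, Wald score, raw p-value and adjusted p. How they were scaled is not given in the sources used here. No column gives a value per library and region, so the planned count test gave way to the authors' adjusted p, and no interval per library was computed. Depth, where headers give it, was 24.0 M to 71.6 M reads per list, and the files allow no precision per library.

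Gene ends were taken from RefSeq's GRCm38.p6, whose coordinates are those of mm10. A region or entry counted where it overlapped 1 kb around either gene end, and the region of highest mean signal stood for a gene. Called means an adjusted p under 0.05. Overlapping H3K4me3 domains of the 4 genotypes were merged before reads were added up, and NELF reads were scaled by header totals. 2 pairs of deposited files were identical, the NELF tables of the single knockouts (used as Zbtb11KO) and the CHD4 and SIN3A event lists of Zfp131KO (used as CHD4), so NELF in Zfp131KO was read from its event list and SIN3A events in Zfp131KO were not used. The text names the 7 genes, genes with an end within 1 kb and the next within 50 kb, up to 4 genes of each of 8 lists by adjusted p for H3K27me3, the 5 genes most like the 7, and those next to the lowest. Some genes of these lists are not reported here. The members and lists were chosen with earlier results of these data known. The scripts (Python 3.11.15, pandas 2.3.3, numpy 2.4.6) were tested on simulated data. Alternatives were other windows, other representative regions, a stricter threshold, centring and other scalings.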

Additional observations from a re-analysis of the deposited data

How the results depend on the processing

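Of the summary values recomputed under another window (500 bp or 2 kb), representative region, threshold (adjusted p under 0.01), centring, scaling or the promoter end alone, 110 kept their direction and their side of the threshold or their size, 9 moved and 1 reversed. The 110 include counts that could not move, for H3K27me3 and CHD4 in Zbtb11KO, where none of the 7 had a region. They also include H3K27me3 in Zfp131KO and ZFP131 events, on which the genes were chosen. A change from 5 to 7 genes called for H3K27me3 in Zfp131KO was counted as kept. The 110 thus do not measure how firm the results are. Centring on the table's median left 0 genes called for NELF in Zbtb11KO, against 1, and the more significant 50% of the list left 2 genes with a ZBTB11 event, against 5. The log2 ratio of NELF reads summed over the 7 genes was -2.25 in Zfp131KO, -0.50 in Zbtb11KO and -4.21 in the double knockout over wildtype. Scaled by reads in all listed events it was -1.19 in Zfp131KO, 0.79 in Zbtb11KO, a reversal, and -1.70 in the double knockout, and without scaling it was -0.74 for Zbtb11KO and -3.96 for the double knockout. The same ratio for H3K4me3 was -1.23 in Zfp131KO, -0.39 for Zbtb11KO and -0.42 for the double knockout over wildtype. It came, scaled by reads in all listed domains, to -1.11 in Zfp131KO, -0.08 in Zbtb11KO and -1.18 for the double knockout. The choice of scaling moved these values. For H3K27me3 in Zfp131KO, Ddx51 had 2.69 (adjusted p 0.546) with a 2 kb window, where another region had the highest mean signal. H3K4me3 in Zbtb11KO at Scfd2 had an adjusted p of 0.0513 after centring. No paired analysis was possible because no file gives values per library and region, and leaving out a replicate was not possible for the same reason. With 2 libraries per group and no depth for domain lists, absent entries cannot be told from entries below the caller's threshold.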
